A study of Mus musculus with 2 samples.

Results

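The accessible regions described here lie far from any protein-coding gene start: their summits are more than 50 kb and at most 200 kb from the nearest protein-coding transcription start site (TSS), in an intron or between genes. They were taken from the conservative peak list of both libraries, in which overlapping or touching peaks on the 21 chromosomes 1 to 19, X and Y were merged and each region kept the summit of its strongest peak. Of 46200 regions, 6345 (13.7%) were far regions, 3603 between genes and 2742 in introns. Another 96 summits at the same distance lay in exons of protein-coding genes and were left out. Distances were measured to the 54361 TSS of 21853 protein-coding GENCODE genes on mm10 (GRCm38).

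The assay was ATAC-seq, in which the transposase Tn5 cuts and tags open chromatin, on megakaryocyte-erythroid progenitors (MEP), the bone marrow cells that give rise to platelets and red cells. There was 1 group of 2 libraries, labelled biological replicates 1 and 2, each from 50000 primary cells taken from 5 to 6 week old C57BL/6J males. Both labels carry the same donor entry, so whether the cells came from separate animals is not stated, and the spread between libraries may be technical. The files are peak lists with no read totals, so the depth of each library is unknown. Intervals below are 95% intervals for counts of regions and cover counting error only. Promoters within 1 kb of 8 of 10 MEP marker genes were accessible in the stricter lists of both libraries, and those of all 10 in the longer lists. The same was true in the stricter lists for 0 of 6 granulocyte and macrophage, 0 of 6 lymphoid and 0 of 4 liver, muscle or neuron genes. In the longer lists it was true for 1 lymphoid gene, Rag1, and for none of the other two lists.

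Enhancers are stretches of DNA that bind transcription factors and raise the activity of a gene, and many of those that control blood regulators lie far from the gene, in its introns or in neighbouring gene deserts. In progenitors of red cells and platelets, GATA factors bind such elements, often together with TAL1, LMO2 and LDB1, RUNX1 and ETS factors. CTCF binds a different class of sites, many of them at boundaries and anchors of chromatin loops. Accessibility by itself does not show that a region is an enhancer, nor which gene it acts on, and the nearest gene is named only as the nearest.

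The sequences at 6 far regions near blood regulators show the range of motif content described below. Each holds the summit base and 100 bp to either side, on the plus strand of mm10, read from RefSeq's copy of the assembly. The capitals mark matches to the GATA consensus (GATA after A or T and before A or G) and to the RUNX consensus (TGTGGT, in which C may stand for the second T), on either strand. None of the 6 windows holds a match to the CTCF consensus.
Kit, chr5:75460506-75460706: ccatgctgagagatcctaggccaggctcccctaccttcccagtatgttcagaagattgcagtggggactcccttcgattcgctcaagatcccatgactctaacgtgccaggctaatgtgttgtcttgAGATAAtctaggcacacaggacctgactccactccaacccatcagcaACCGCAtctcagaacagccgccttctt
Lmo2, chr2:103893831-103894031: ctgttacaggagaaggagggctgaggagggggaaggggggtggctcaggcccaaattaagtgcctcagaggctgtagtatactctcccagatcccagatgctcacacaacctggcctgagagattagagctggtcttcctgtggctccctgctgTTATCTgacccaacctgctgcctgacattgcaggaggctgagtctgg
Myb, chr10:21221503-21221703: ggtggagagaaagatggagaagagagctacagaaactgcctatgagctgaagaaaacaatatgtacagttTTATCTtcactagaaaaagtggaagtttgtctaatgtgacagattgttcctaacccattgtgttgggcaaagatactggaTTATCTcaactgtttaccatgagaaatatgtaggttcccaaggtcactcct
Bcl11a, chr11:24136147-24136347: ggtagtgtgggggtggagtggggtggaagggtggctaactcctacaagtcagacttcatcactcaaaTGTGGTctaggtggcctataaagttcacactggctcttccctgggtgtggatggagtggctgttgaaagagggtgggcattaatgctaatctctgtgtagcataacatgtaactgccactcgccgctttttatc
Meis1, chr11:18904378-18904578: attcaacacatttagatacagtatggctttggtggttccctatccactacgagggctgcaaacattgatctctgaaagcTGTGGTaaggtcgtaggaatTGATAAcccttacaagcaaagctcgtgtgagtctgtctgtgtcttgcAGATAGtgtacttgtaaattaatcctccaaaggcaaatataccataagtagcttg
Fli1, chr9:32607329-32607529: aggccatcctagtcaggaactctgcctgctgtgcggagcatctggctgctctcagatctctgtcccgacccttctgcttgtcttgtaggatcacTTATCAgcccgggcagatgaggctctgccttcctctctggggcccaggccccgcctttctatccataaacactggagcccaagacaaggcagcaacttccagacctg
The Kit window has 1 GATA and 1 RUNX match, the Lmo2 window 1 GATA match and the Myb window 2 GATA matches. The Bcl11a window has 1 RUNX match and no GATA match. In the Meis1 and Fli1 windows a GATA match is preceded by CTG at a spacing of 7 to 9 bases, the arrangement known for the complex of TAL1 and GATA1.

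Sequences at the strongest far regions look different. Both windows below lie in a cluster of zinc finger genes on chromosome 17 and are shown because they had the highest mean fold over both libraries. The capitals here mark matches to the ETS consensus (GGAA after A or C and before A or G) and to the CCAAT box of NFY (CCAAT before C or G).
Zfp960, chr17:17004911-17005111: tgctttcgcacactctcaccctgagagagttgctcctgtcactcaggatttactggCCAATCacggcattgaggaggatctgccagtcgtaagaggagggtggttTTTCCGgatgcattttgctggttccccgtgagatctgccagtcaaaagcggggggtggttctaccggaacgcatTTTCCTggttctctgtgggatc
Zfp97, chr17:17179125-17179325: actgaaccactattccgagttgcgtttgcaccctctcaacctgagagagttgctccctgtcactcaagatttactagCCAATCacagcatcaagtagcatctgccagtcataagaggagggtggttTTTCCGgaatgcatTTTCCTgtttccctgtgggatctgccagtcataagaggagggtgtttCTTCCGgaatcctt
The window nearest to Zfp960 holds 2 ETS matches, that nearest to Zfp97 holds 3, and each holds 1 CCAAT box. Neither holds a GATA match.

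Far regions were sparse for the room they have. Sequence at 50 to 200 kb, outside coding-gene exons and assembly gaps, covered 723 Mb (28.1% of all such sequence) and held 8.77 far regions per Mb (8.56 to 8.99), or 1 in every 114 kb. Near distal sequence, defined as more than 5 kb and at most 50 kb from a TSS, held 21.1 per Mb (20.8 to 21.4; 19328 regions), and sequence beyond 200 kb held 1.86 per Mb (1.76 to 1.96; 1287 regions). The density fell with distance within the far class too, to 11.3 per Mb at 50 to 100 kb, 6.98 at 100 to 150 kb and 5.02 at 150 to 200 kb, and the intervals of these steps did not overlap. Of the far regions, 4130 lay within 100 kb of a TSS, 1471 at 100 to 150 kb and 744 beyond 150 kb. Introns held more of them for their length than intergenic sequence, with 11.1 per Mb (10.7 to 11.6) against 7.55 per Mb (7.31 to 7.80).

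**Figure D1:**
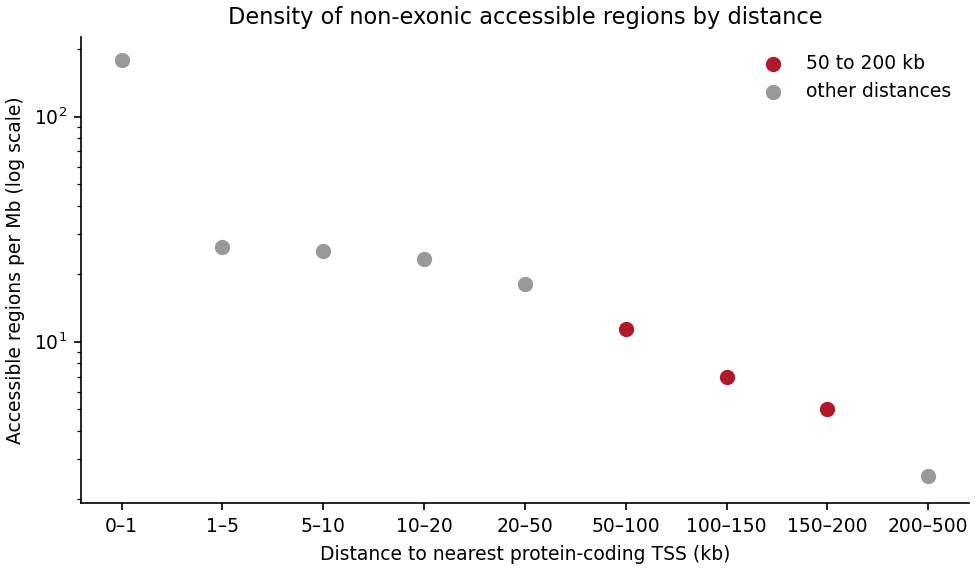
Accessible regions of the conservative list per Mb of sequence outside exons and gaps (vertical, log scale) by distance to the nearest protein-coding TSS (horizontal, kb). Points are counts divided by sequence length with 95% intervals that are mostly smaller than the point, red points are the far classes, at 11.3, 6.98 and 5.02 per Mb in order of distance.

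Chromosomes differed. The autosomes held 6.98 (chromosome 14) to 12.2 (chromosome 17) far regions per Mb. Chromosome X held 3.02 per Mb (2.58 to 3.51; 167 regions), below every autosome, and chromosome Y held 1 region in 32.3 Mb. The cells came from males, so X and Y are each present once, and the part of copy number in these counts was not tested. Of the accessible regions on X, 15.3% were far regions, against 13.7% over all chromosomes, so the low density was not particular to the far class. The X-linked far regions that were called had a median fold of 7.69 (6.96 to 8.27), against 6.72 over all far regions. Without X and Y the far density was 9.72 per Mb, a value computed after the data had been seen.

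Regions on either side of the distance limits had folds in overlapping ranges. Just inside 50 kb, far regions nearest to Ano6 and Tank at 50018 and 50029 bp had folds of 6.10 and 13.3. The 3 just outside, nearest to Selenon, Gpr173 and Grhl3 at 50000, 49980 and 49967 bp, had folds of 5.53, 6.67 and 10.8. At the other limit, regions nearest to Atg4a, Rab11fip2 and Klf14 at 199971, 199884 and 199861 bp had folds of 7.26, 8.80 and 5.53. Those beyond it, nearest to Disc1, Hes1 and Maf at 200048, 200109 and 200126 bp, had folds of 5.83, 5.55 and 12.02.

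Far regions were close to near distal ones in fold, width and repeat detection. The fold given here is the authors' own value for each peak, read as enrichment over local background. It is not scaled between lists, so the folds of the libraries are set side by side, and their mean serves only to order regions. Its median was 6.72 for far regions (6.67 to 6.81), 6.44 for near distal regions (6.40 to 6.48) and 7.13 for regions beyond 200 kb (6.96 to 7.27). The far median was thus 0.285 above the near one (interval 0.217 to 0.381). The same order held in the stricter list of each library, with medians of 7.43 for far and 7.10 for near distal regions in replicate 1, and 7.90 and 7.66 in replicate 2. The significance of the peaks did not follow it: the median −log10 p was 32.6 for far (32.2 to 33.2) and 33.0 for near distal regions (32.5 to 33.2). In 5 equal groups of −log10 p, formed after the data had been seen, the median fold of far regions exceeded that of near distal regions in all 5, with 10.2 against 9.66 in the most significant group and 4.88 against 4.66 in the least. The median width was 494 bp for far and 480 bp for near distal regions, a difference of 14 bp (4.15 to 23.8) that was 2 bp (−3.83 to 7.83) in the longer replicated list.

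Repeat detection was judged in the lists of the single libraries. Of the far regions, 3011 (47.5%) overlapped a region of the stricter, IDR-thresholded list of replicate 1 and 3283 (51.7%) one of replicate 2; IDR, the irreproducible discovery rate, is low for peaks whose ranks in separate lists match. Both lists held 2503 of them (39.4%, 38.3 to 40.7), against 39.4% of near distal regions, 39.1% beyond 200 kb and 48.6% of all regions, which include promoters. The difference between far and near distal regions was 0.08 percentage points (−1.31 to 1.47). In the longer pseudoreplicated lists 5803 far regions (91.5%) were in both, against 91.2% of near distal and 92.6% of all regions. Among these 5803 Spearman's rho between the folds of the libraries was 0.870, a description across regions and not a test. The conservative list was itself kept by IDR between the libraries, so this agreement was part of how the regions were chosen.

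The similarity of the shares depended on how regions were matched. Within 5 equal groups of fold, far regions were found in both libraries less often than near distal ones in the middle 3 groups, with differences of −3.00 (−5.00 to −0.832), −5.79 (−8.54 to −2.94) and −6.83 (−9.97 to −3.70) percentage points. In the weakest and the strongest group the interval of the difference held 0. Within 5 equal groups of −log10 p the interval held 0 in all 5. Groups 1, 2 and 5, from the least significant, left little room for a difference. Their far and near distal shares were 0.07% and 0.11%, 1.65% and 1.33%, and 98.3% and 98.2%. In groups 3 and 4, with far shares of 24.3% and 73.6%, the differences were 0.345 (−2.31 to 3.11) and 0.520 points (−2.34 to 3.27). The share found in both was 40.5% at 50 to 100 kb (39.0 to 42.0) and 35.9% at 150 to 200 kb (32.5 to 39.4).

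The GATA consensus was the most frequent of the 12 motifs in the windows of far summits, although in windows reaching 200 bp to either side ETS came first, with 72.5% against 71.9% for GATA. It was present in 57.1% of far windows (3623 regions, 55.9 to 58.3) and in 53.7% of near distal windows, with 43.4% over all regions. The difference between far and near distal regions was 3.43 percentage points (2.02 to 4.83), and its interval left out 0 under all 9 alternatives run, each library alone among them, where it ran between 2.20 and 4.46. Windows 500 bp to either side of the summit also differed, with 32.4% at far and 30.5% at near distal regions, so the centre exceeded its flank 1.76-fold in both classes. Far windows had a median GC content of 49.3%, against 50.2% in near distal windows. In 5 equal groups of GC content, formed after the data had been seen, the difference in GATA share ran from 0.636 to 3.34 points, was above 0 in all 5 and left out 0 in 2 of them. It was also above 0 in every group of fold, width and −log10 p, but its interval did not leave out 0 in all. Numbered from the lowest values, the interval held 0 in fold group 3, with 2.04 points (−1.11 to 5.18). It held 0 in width groups 1, 2 and 4 (1.26, 1.94 and 2.20 points). The same was true of −log10 p groups 1, 2 and 5 (0.931, 2.63 and 2.12 points). Within the far class the GATA share was 56.2% at 50 to 100 kb, 58.8% at 100 to 150 kb and 58.6% at 150 to 200 kb.

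CTCF matches were fewer but the most sharply placed. They were present in 17.6% of far windows (1118 regions, 16.7 to 18.6), against 1.25% of flanks, a 14.2-fold excess, and in 19.5% of near distal windows. The difference of −1.84 points (−2.92 to −0.734) had an interval that held 0 in replicate 1 alone (−1.27, −2.69 to 0.205), in replicate 2 alone (−0.984, −2.37 to 0.458) and in the upper 50% of regions by fold (−0.989, −2.54 to 0.604). The compound E-box and GATA arrangement, CTG and a GATA match spaced by 7 to 9 bases, was present in 15.4% of far windows, 2.20% of their flanks (7.004-fold) and 14.3% of near distal windows. That difference of 1.11 points (0.112 to 2.14) lost its call under 3 of 9 alternatives. The RUNX consensus was in 24.5% of far windows, 16.6% of flanks and 24.9% of near distal windows, and the difference of −0.36 points (−1.57 to 0.873) was not past the threshold.

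The remaining motifs separated the classes little. Matches to the ETS consensus were as common beside the summit (45.0%) as at it (46.5%), and near distal windows had 45.8%. The CEBP consensus (TTGCNNAA, in which A may stand for G), bound by factors of granulocytes and macrophages, was less frequent at far summits than beside them, with 13.7% against 17.1%. The GC-rich or CACCC box of KLF and SP factors was in 11.4% of far and 12.4% of near distal windows. The homeobox consensus (TGACAG, known for MEIS factors, and TGATTNAT for HOX factors) was in 19.7% and 18.4%, the CCAAT box in 14.5% and 13.5%, and the E-box (CAGCTG, in which A may stand for the second C) in 33.1% and 32.8% of far and near distal windows. The AP-1 consensus (TGACTCA), which NFE2 and BACH proteins also bind in a longer form, was in 6.05% and 5.70%, and AGGAAGT, which PU.1 binds, in 7.72% and 7.13%. Of these motifs KLF, homeobox and CCAAT differed between far and near distal regions by an interval that left out 0, and each lost its call under 3 or more of 9 alternatives. Set against regions beyond 200 kb, 11 of the 12 shares had differences whose interval held 0, and the CEBP share of far regions differed by −2.37 points (−4.64 to −0.278).

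The GATA, RUNX and CTCF matches were all centred on the summit. In the 20 bp just downstream of it there were 11.8 GATA matches per 100 far regions, 3.74 RUNX matches and 6.30 CTCF matches. About 450 bp upstream the values were 4.35, 1.86 and 0.142. The CTCF peak was the narrowest, and the GATA peak of far regions stood on a higher base than that of near distal regions.

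**Figure D2:**
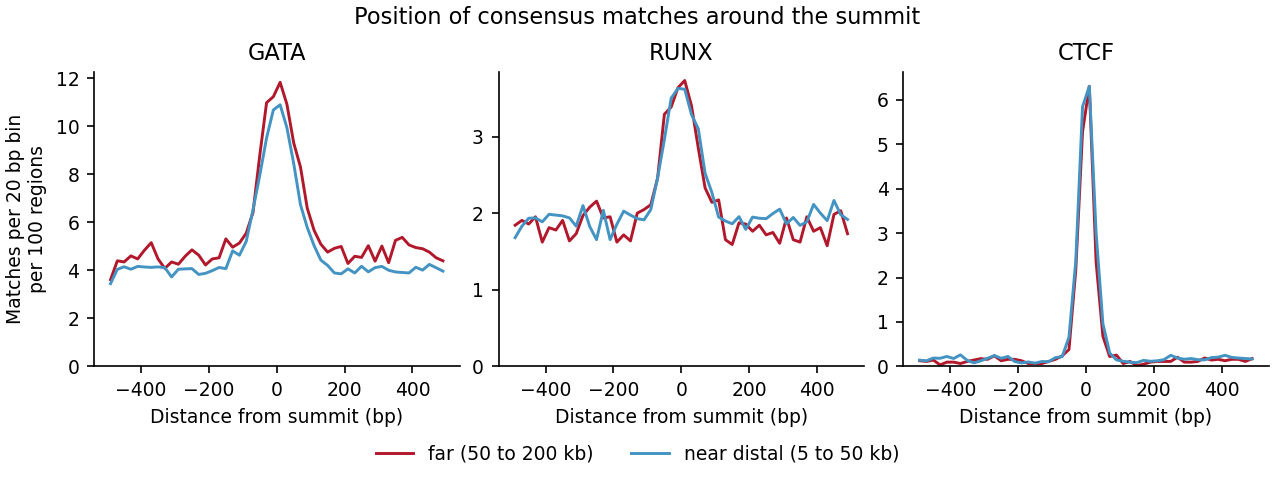
Matches per 20 bp bin per 100 regions (vertical) against distance from the summit in bp (horizontal) for GATA, RUNX and CTCF, in far (red) and near distal regions (blue). At far summits GATA reaches 11.8 and CTCF 6.30, and the RUNX curves of both classes overlie each other.

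GATA and CTCF matches marked largely separate sets of far regions. CTCF matched in 8.03% of far regions with a GATA match and in 30.4% of those without, a difference of −22.4 points (−24.3 to −20.4). The 1118 regions with CTCF had a median width of 406 bp, and 29.2% of them (26.6 to 31.9) were in the stricter lists of both libraries. The 3332 regions with GATA and no CTCF were wider, at 564 bp, and 45.5% (43.8 to 47.2) were in both. The 1895 regions with neither were 456 bp wide and 34.8% (32.7 to 37.0) were in both. The median folds of these 3 sets were closer together, at 6.89, 6.79 and 6.53. Far regions with the E-box and GATA arrangement stood above these 3 sets, with 53.4% (50.3 to 56.5) of 977 in both libraries and a median fold of 7.07. They overlap these sets, since all 977 hold a GATA match and 30 also a CTCF match. Width was not held constant in these comparisons. RUNX matched in 25.6% of far regions with a GATA match and in 23.1% of those without, a difference of 2.49 points (0.351 to 4.60).

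Intronic far regions carried more GATA matches and fewer CTCF matches than intergenic ones. GATA was in 63.5% of intronic and 52.2% of intergenic far windows, a difference of 11.3 points (8.82 to 13.7). CTCF was in 14.95% and 19.7%, a difference of −4.70 points (−6.55 to −2.82). Far regions were less often intronic than near distal ones, at 43.2% against 54.7%. Taken apart by place, the GATA difference between far and near distal regions was 3.61 points in introns (63.5% and 59.9%, interval 1.57 to 5.62) and 6.07 points between genes (52.2% and 46.2%, interval 4.13 to 8.01). The CTCF difference was −1.29 points in introns (−2.76 to 0.261) and −3.70 points between genes (−5.25 to −2.11).

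Of the intronic far regions, 74.1% lay inside their own nearest gene. Far regions were upstream of the nearest TSS in 38.8% of cases, which splits into 53.5% of the intergenic and 19.5% of the intronic ones. They stood alone more often than near distal regions: the summit of another accessible region lay within 10 kb of the summit of 46.5% of them, against 60.6% of near distal regions. They still clustered among themselves, with the next far summit within 10 kb for 43.9% and beyond 100 kb for 19.1%.

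Some far regions lay at the start of a noncoding gene. A noncoding or pseudogene TSS lay within 1 kb of 391 far summits (6.16%), against 5.22% of near distal summits and 11.3% of those beyond 200 kb. Of the 391, 168 were at lincRNA genes and 56 at processed pseudogenes. Counting the TSS of all annotated genes in place of protein-coding ones left 1741 far regions. A CpG ratio above 0.6, typical of CpG islands, was seen in 397 far windows (6.26%). The share was 6.09% of near distal windows and 6.84% of those beyond 200 kb, and the interval of either difference held 0. Of the 397, 54.9% (49.99 to 59.7) were in both libraries, against 39.4% of all far regions and 48.6% of all regions. Sequence present more than once in the assembly (an identical 50 bp run at the summit) was found at 1.89% of far regions, 1.61% of near distal ones and 7.15% of those beyond 200 kb.

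Several of the strongest far regions had near-copies elsewhere in the class. Strength was ordered by the mean fold over the stricter lists of both libraries. Only the 2503 far regions in both lists could be ranked, so a ranked region was in both by construction. The highest, nearest to Zfp960 at 59.1 kb upstream (chr17:17004586-17005225, intergenic), had folds of 24.7 and 23.2 in the stricter lists of replicates 1 and 2. The second, nearest to Zfp97 at 57.8 kb downstream (chr17:17178750-17179402), had 18.1 and 22.6, and the third, 113 kb upstream of Zfp960 (chr17:16951047-16951676) and within 1 kb of the lincRNA BC002059, had 20.3 and 19.4. All 3 lay more than 10 units above the far median in each library. Their windows belonged to a group of 8 far regions linked by alignments of at least 100 bp, all 8 found in both libraries, with a median pairwise identity of 88.4% (74.8 to 96.4). All 8 held an ETS match and none a GATA match, and their median fold was 17.7, from 13.5 to 26.1.

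A second group of 5 like regions lay on chromosome 8, with a median identity of 96.3% and folds of 14.7 to 22.2. It includes the fourth strongest region, nearest to Gm21119 (chr8:20550068-20550596), with 20.1 and 18.9 in replicates 1 and 2. Of the 15 strongest far regions, 9 were like another far region, 2 held a GATA match and 1, nearest to Gm5426, aligned to mitochondrial DNA. Reads from near-identical copies cannot be assigned to one of them with certainty, and the part of copy number in these folds was not tested. Over all far regions 245 (3.86%) in 72 groups were like another, with a median fold of 7.37 against 6.70 for the others. The largest group held 39 regions on 17 chromosomes, 28 of them with the summit in a masked repeat and 29 with a CTCF match.

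Single strong regions not like another far region were also among the first 15. Outside the far class, only identical 50 bp runs at the summit and mitochondrial DNA were searched for. One nearest to St6galnac3, a sialyltransferase gene, 76.7 kb downstream of its TSS (chr3:153148881-153149262), had folds of 17.9 and 19.98 in replicates 1 and 2, with a GC content of 73.1%. One 55.9 kb upstream of Tbc1d2b (chr9:90326254-90327195) had 16.6 and 16.7 and 3 GATA matches. One 53.2 kb upstream of Frmd4a (chr2:3964440-3964681) had 17.9 and 16.3 and no GATA match. Further down the order, 50 of the 100 strongest far regions held a GATA match, 27 were intronic and 22 were like another far region.

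The far regions were spread over many genes and concentrated at some. Of all protein-coding genes, 2660 (12.2%) were nearest to at least 1, and 7207 have any sequence at that distance for which they are the nearest gene. Exactly 1 far region fell to 1239 genes, and the 321 genes with 5 or more took 34.9% of all far regions. Pard3, which encodes a cell polarity protein, had the most, with 18, all intronic, 12 of them with a GATA match and 7 in both libraries, at folds of 3.55 to 9.87. Gse1, which encodes a coiled-coil protein, had 16, Zfhx3, a zinc finger homeobox factor, had 15, and Med13l, a subunit of the Mediator kinase module, had 14. Arid1b, a subunit of the BAF chromatin remodeller, and Haao, an enzyme of tryptophan breakdown, had 14 each. Pde4d, a cAMP phosphodiesterase, and Agpat4, an acyltransferase, had 13 each, and Ikzf2 and Sox5, both transcription factor genes, had 12 each.

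The density per Mb of such sequence ordered these 10 genes differently. Haao had 116 far regions per Mb, Agpat4 105 and Gse1 100, against 8.77 over all genes. Pde4d had 16.7 per Mb and Zfhx3 26.2. All 14 regions nearest to Haao were upstream of it and intergenic, and all 13 nearest to Agpat4 were intronic. Ikzf2, the gene of the lymphoid factor Helios, had 74.6 per Mb. A region in its intron 124 kb downstream of the TSS (chr1:69559496-69560373) had 3 GATA matches, a pooled fold of 13.14 and folds of 12.4 and 12.3 in replicates 1 and 2. A region 83.1 kb downstream of a Pde4d TSS (chr13:109343512-109343983) had a pooled fold of 13.06 and folds of 10.3 and 13.7.

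Far regions were denser at blood transcription factor, stem cell and megakaryocyte genes than at genes in general, and the counts at red cell genes were small. The intervals treat regions as independent, although many fell to the same few genes, so they are too narrow for a statement about the genes. The lists were chosen with earlier results of these data known, and no set test was run. Of 26 genes on the list of blood transcription factors, 16 (61.5%) were nearest to a far region, against the 12.2% of all genes, with 77 regions at 32.5 per Mb (25.7 to 40.6). Only 19 of the 26 have any sequence at that distance for which they are the nearest gene. The count was thus 16 of 19, against 36.9% of all genes with such sequence. Of those 77 regions, 59 (76.6%, 66.05 to 84.7) had a GATA match, against 57.1% of all far regions. Meis1, a homeobox factor of stem cells and megakaryocytes, led with 12, before Etv6, an ETS repressor needed in stem cells, with 10 and Bach2, a repressor of lymphoid and myeloid cells, with 9. Of 20 stem and progenitor genes 7 had a far region, or 7 of the 8 with such sequence. Their 35 regions lay at 24.9 per Mb (17.4 to 34.7), and 28 of the 35 had a GATA match. Cd34, the gene of the progenitor surface marker, and Kit, the stem cell factor receptor, had 8 each.

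Megakaryocyte and platelet genes had a far region in 6 of 26 cases, or 6 of the 7 that are the nearest gene to any sequence at that distance. Their 26 regions lay at 35.5 per Mb (23.2 to 52.0), and 20 of these regions had a GATA match. P2ry1, an ADP receptor of platelets, had 9, all with a GATA match, at folds of 5.83 to 10.8. Ltbp1, which encodes a binding protein of latent TGF-beta, had 8 and Thbs1, the gene of thrombospondin in platelet granules, had 4. Of 28 erythroid genes 3 had a far region, or 3 of the 8 with such sequence. The 7 erythroid regions lay at 17.9 per Mb (7.18 to 36.8), an interval that holds the 8.77 of all genes. They included 4 at Car2, a carbonic anhydrase of red cells, and 1 in an intron of Sptb, the gene of beta spectrin. A GATA match was in 4 of the 7 (57.1%), against 57.1% of all far regions. Of 24 haem and iron genes 1 had a far region, or 1 of the 8 with such sequence. That region held no GATA match.

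Lists of other cell types held 0 to 5 far regions each, with 0 to 2 of 24 genes nearest to one, against the 12.2% of all genes. Only some of these genes are the nearest gene to any sequence at that distance. Among those that are, a far region was found at 2 of 3 granulocyte and macrophage, 1 of 7 lymphoid and 2 of 8 hepatocyte genes. It was found at 1 of 15 neuron and 0 of 5 muscle genes, against 36.9% of all genes with such sequence. Of 24 granulocyte and macrophage genes 2 had a far region, Irf8, a factor of monocytes and dendritic cells, with 3 and Csf3r, the receptor of granulocyte colony-stimulating factor, with 2. Of these 5 regions 0 were in the stricter lists of both libraries, against 39.4% of all far regions, and 5 are too few to compare with that share. The same count was 31 of 77 for transcription factor, 18 of 35 for stem cell, 8 of 26 for megakaryocyte and 3 of 7 for erythroid genes. It was 1 of 4 for hepatocyte genes, 1 of 1 for haem and iron genes and 0 of 1 each for lymphoid and neuron genes. A GATA match was in 3 of 4 hepatocyte, 1 of 5 granulocyte and macrophage, 1 of 1 lymphoid and 0 of 1 neuron regions. These are also too few to compare with the 57.1% of all far regions. The density of the granulocyte and macrophage list was 15.9 per Mb (5.16 to 37.1), close to that of the erythroid list and with an interval that also holds 8.77. Of 24 lymphoid genes 1 had a far region, Gata3, a T cell factor, with 1 region. Of 24 hepatocyte genes 2 did, Apob with 3 and Cps1 with 1, of 24 neuron genes 1, Neurod1, with 1, and of 24 muscle genes 0, which at their 0.153 Mb of sequence allows up to 24.0 per Mb. The density was 6.02 per Mb (1.64 to 15.4) for the hepatocyte list and, below the 8.77 of all genes, 1.27 (0.0322 to 7.09) for the lymphoid and 0.714 (0.0181 to 3.98) for the neuron list. Apob, the gene of the main lipoprotein of liver, had a far region 87.0 kb downstream (chr12:8099183-8099672) with folds of 11.3 and 14.2 in replicates 1 and 2. Counting any gene with a TSS within 200 kb in place of the nearest gene gave 20 of 26 blood transcription factor, 13 of 26 megakaryocyte, 11 of 20 stem cell, 9 of 28 erythroid and 10 of 24 haem and iron genes. Of the other lists, each of 24 genes, it gave 8 hepatocyte, 6 lymphoid, 5 granulocyte, 5 neuron and 5 muscle genes, against 6370 of all 21853 genes.

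**Figure D3:**
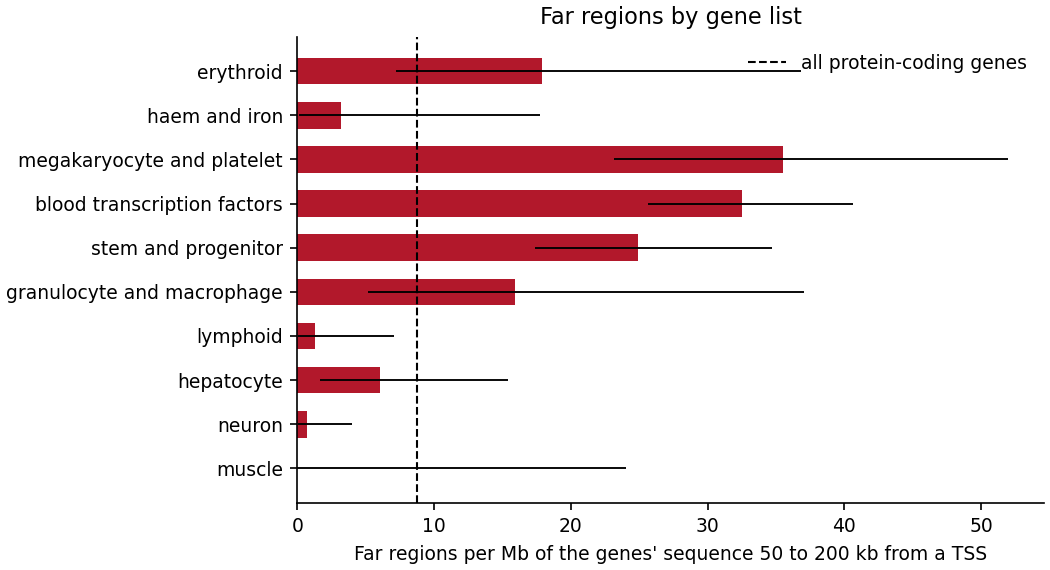
Far regions per Mb of sequence 50 to 200 kb from a TSS for which the gene is nearest (horizontal), by gene list (vertical), with exact Poisson 95% intervals as lines. The intervals treat regions as independent, although many fell to the same few genes. The dashed line is the 8.77 per Mb of all genes, and the megakaryocyte, transcription factor and stem cell lists lie to its right with intervals that leave it out, while the neuron and lymphoid lists lie to its left.

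Single regulators differed in the number, place and fold of their far regions. Kit had 8, from 197 kb upstream to 193 kb downstream, 7 with a GATA match and none with CTCF. The strongest, 114 kb upstream (chr5:75460067-75460989, intergenic), is the Kit window printed above and had folds of 10.8 and 11.4 in replicates 1 and 2, and that 197 kb upstream (chr5:75377014-75377842) had 8.45 and 9.98. The one farthest downstream, 193 kb away (chr5:75767354-75767834), had 6.78 and 5.67 and was in the stricter list of neither library. Lmo2, the bridging factor of the GATA and TAL1 complex, had 5, all between 61.0 and 76.7 kb upstream and all with a GATA match. The window printed above belongs to the region 64.1 kb upstream (chr2:103893651-103894264), with folds of 7.27 and 7.33, the only one of the 5 in the stricter lists of both libraries.

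Myb, a factor of progenitor growth for which upstream enhancers are known in the mouse, had 1, 60.6 kb upstream (chr10:21220987-21222177), with folds of 7.65 and 7.76. Bcl11a, a repressor of fetal globin genes whose erythroid enhancer in humans is intronic, had 2, both intronic. The one 55.6 kb into the gene (chr11:24135890-24136678) had 7.20 and 8.51, and the other, at 68.1 kb (chr11:24148218-24149002), had 3.59 and 3.53 and 3 GATA matches. Fli1, an ETS factor of megakaryocytes, had 2, both with a GATA match and in both libraries. That 64.6 kb upstream (chr9:32607184-32607772) had 9.27 and 10.3, and that 64.8 kb downstream in the gene (chr9:32476417-32477106) had 8.87 and 10.2.

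Runx1, a founding factor of blood stem cells, had 6, all with a GATA match, and 2 of them were in both libraries. The strongest, 57.8 kb upstream (chr16:92883571-92884480), had folds of 8.95 and 10.2, and that 60.8 kb downstream of its nearest Runx1 TSS, in an intron (chr16:92764544-92765346), had 8.26 and 9.73. The other 4 had folds between 3.84 and 4.75 in either library. Meis1 had 12, of which 9 had a GATA match and 4 were in both libraries. The window printed above is that 114 kb downstream in its intron (chr11:18903969-18904750), with 8.47 and 9.32. A group of 3 lay about 136 kb upstream, the strongest of them (chr11:19155520-19156206) with 7.75 and 8.41.

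Erg, an ETS factor of stem cells, had 2 intronic regions, with folds of 6.497 and 7.31 at the stronger (chr16:95405555-95406007). Mecom, a zinc finger factor of stem cells, had 2 intronic regions, 65.1 and 116 kb upstream of the nearest TSS, with folds of 5.39 to 6.12, neither in the stricter list of either library. Etv6 had 10, of which 9 had a GATA match and 2 were in both libraries. Myc had 9, all downstream at 50.5 to 172 kb and between protein-coding genes, with folds of 4.14 to 7.99, 5 of them in both libraries and 5 with a GATA match. Bach2 had 9, 8 with a GATA match, the strongest in an intron (chr4:32356114-32356698) with 9.98 and 11.0. Smad7, an inhibitor of TGF-beta signals, had 12, of which 5 lay in introns of the neighbour Dym and 4 in introns of Ctif, and the strongest, 105 kb upstream, had 10.9 and 10.6.

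Ikzf1, the gene of the lymphoid factor Ikaros, had 1 (5.51 and 6.80), Foxo3, a stress response factor, had 1 (6.45 and 7.43), Hhex, a homeobox factor, had 1 (5.86 and 5.50) and Zfpm1, the GATA cofactor FOG1, had 1 (5.86 and 5.47). The Irf8 regions had 4.79 and 7.06 at 57.8 kb and 4.97 and 6.84 at 89.8 kb, and the third was called in replicate 2 alone. The Ikzf2 region 59.5 kb upstream (chr1:69746490-69747469) had 7.53 and 11.8. No far region was nearest to Gata1, Gata2, Tal1, Klf1, Gfi1b, Nfe2, Lyl1, Spi1, Cebpa, Ldb1, Epor or Tfrc. Of these genes only Gata2, with 4.70 kb, and Tfrc, with 6.31 kb, are the nearest gene to any sequence at that distance. Far regions lay within 200 kb of the TSS of Lyl1 (5), Gata2 (2), Cebpa (2), Ldb1 (1) and Gfi1b (1), each with another gene nearer.

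**Figure D4:**
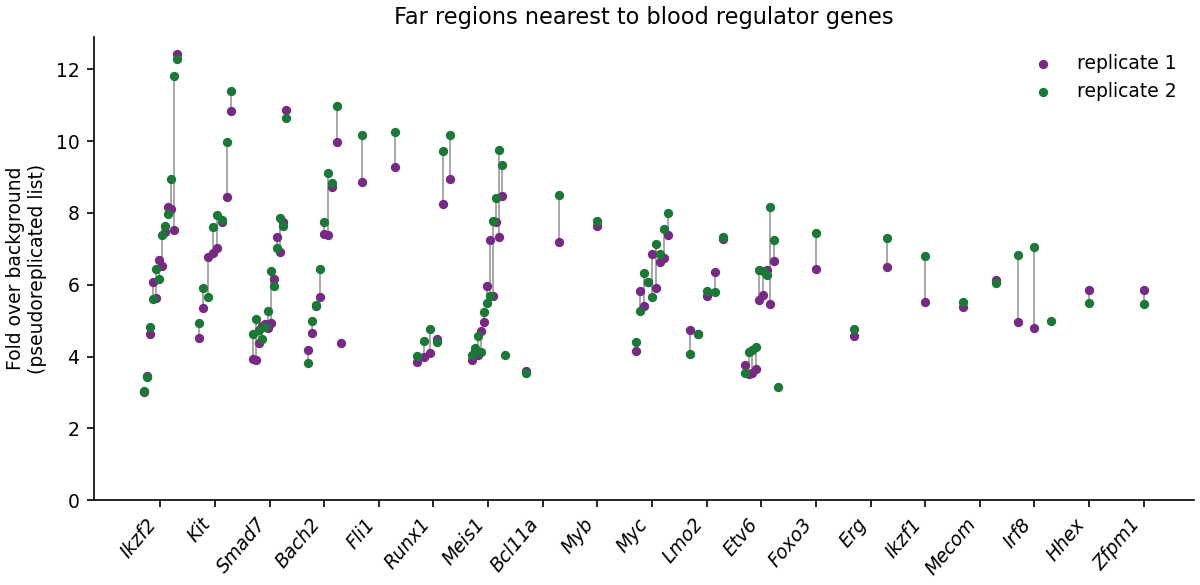
Fold over background in the longer list of each library (vertical) for every far region nearest to a blood regulator gene (horizontal), with replicate 1 in purple, replicate 2 in green and a line joining the values of one region. Ikzf2, Kit and Smad7 each have a region above 10 in both libraries, and an Ikzf2 region at 7.53 and 11.8 has the longest line.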

How the data were processed

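ATAC-seq was measured in 2 libraries of 1 group, and the deposited files are peak lists on mm10 in narrowPeak layout. For the aligner and peak caller, names and versions: not given in the sources used here. The deposited ratio is a fold per peak written by the authors' caller, and the deposited −log10 p gives its significance and rises with sequencing depth. Neither is scaled between libraries. Per the labels and read-me texts, the conservative list was kept by IDR between the true replicates, and each library has an IDR-thresholded and a longer pseudoreplicated list. A share of peak lines repeat an interval with another summit, so overlapping or touching peaks were merged.

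Regions were placed against GENCODE protein-coding genes, and windows of the summit base and 100 bp to either side were searched for 12 consensus motifs on both strands, with windows 500 bp to either side as flanks. A match may overlap that of another motif: every E-box-GATA match contains a GATA match, every AGGAAGT an ETS match. Shares have Wilson, differences of shares Newcombe, and medians order-statistic 95% intervals. A difference counts as past the threshold when its interval leaves out 0. No p-value was computed, because regions are not replicates and 2 libraries of 1 group allow no permutation. An overlap of 1 bp counted as found. Far windows were aligned to one another with blastn 2.17.0 (E-value 1e-10, at least 100 bp). Other steps used Python 3.11.15, numpy 2.4.6, pandas 2.3.3, scipy 1.17.1 and pysam 0.24.0. The interval, overlap and motif code was tested on simulated data.

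Named genes were 32 fixed regulators, the 10 genes nearest to most far regions, the 10 far regions of highest mean fold with the first 5 of any rank free of mitochondrial alignment, and up to 3 members of each gene list. Regions beyond these 15 ranks and the flanking examples at the limits were given by rank or distance. The members, lists, motifs and tests were chosen with earlier results of these data known. Some genes that this rule names are not reported here.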

Additional observations from a re-analysis of the deposited data

How the results depend on the processing

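No paired analysis was possible because the libraries form 1 group. The number of far regions was 13132 in the longer replicated list, 1741 with TSS of all genes, 3313 in the upper 50% by fold, and 3076 to 3402 in the list of 1 library; other definitions kept it within 1.5 times of 6345. The far density without chromosomes X and Y was 9.72 per Mb. The share found in both libraries was 37.3% when 50% of a region had to be covered, 91.5% with pseudoreplicated lists and 65.3% in the upper 50% by fold, and 47.5% to 51.7% were found in 1 library. The far minus near distal difference in that share was −3.07 points (−4.96 to −1.20) in the upper 50% by fold, against 0.08 in the main comparison, and it ran from −0.24 to −0.18 in 1 library, within the main interval. The CTCF difference was −0.989 in the upper 50% by fold and −1.27 to −0.984 in 1 library, each with an interval that held 0. The number of the 12 motifs that differed, 6 in the main comparison, was 3 in the upper 50% by fold and 2 in 1 library, but 9 in windows reaching 200 bp to either side and 9 in the longer replicated list. In both of these ETS, PU.1 and CEBP had differences above 0 whose intervals left out 0, from 0.572 to 2.09 points. The homeobox difference reversed to −0.32 in the upper 50% by fold, and the CCAAT difference was −0.093 to −0.043 in 1 library. The width difference was 2 bp in the longer replicated list. Counting any gene within 200 kb gave 9 erythroid, 10 haem and iron, 13 megakaryocyte, 11 stem cell, 5 granulocyte, 6 lymphoid, 8 hepatocyte, 5 neuron and 5 muscle genes, and 6370 genes in all. In the upper 50% by fold the granulocyte list had 1 gene, the lymphoid 0 and the hepatocyte 1. The cause of these changes was not tested. Of 296 values recomputed in all, 190 kept their call or stayed within the main interval. The alternatives without X and Y, without like members, and in groups of −log10 p or GC content were chosen after seeing the data. Depth is unknown and limits which weak regions could be called.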

Other observations

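Far regions at noncoding starts included some of high fold away from the zinc finger cluster. A region in an intron of Pcdh7, a protocadherin gene, within 1 kb of the start of the pseudogene Gm17977 (chr5:57898811-57899710), had folds of 15.3 and 13.9 in replicates 1 and 2 and 2 GATA matches. One nearest to Asap2, at the pseudogene 3110053B16Rik (chr12:20920925-20921588), had 12.2 and 17.1, a GC content of 70.6% and no GATA match. The 50 bp run at its summit occurs 2 times in the assembly, and it belonged to a group of 3 like far regions on chromosome 12. One nearest to Ccnh (chr13:85126503-85127549) had 15.3 and 14.5 and aligned to mitochondrial DNA, as did 3 far regions in all. One nearest to Slc16a1, at the small nuclear RNA gene Gm24223 (chr3:104700924-104701328), had 12.7 and 16.3 and 1 CTCF match.

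The number of different motifs in a far window moved with how often it was found again. Counting GATA, RUNX and ETS, 1140 far regions held none of the 3 and 31.4% of them were in both libraries, 2716 held 1 (38.9%), 2058 held 2 (43.4%) and 431 held all 3 (45.2%). The median width was 407, 490, 545 and 566 bp in the same order, while the median fold stayed between 6.67 and 6.82. Width was not held constant in these shares.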
